A study of Capra hircus with 9 samples.

Results

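Translation initiation factors are the proteins that bring an mRNA, the initiator tRNA and the ribosomal subunits together at a start codon. The 43 genes described here were taken by symbol. They are the rows of the deposited tables whose symbol begins with EIF1 to EIF6 and that every file lists, out of 18383 genes named in any file and 13820 listed in all. Of 50 rows that match, 6 encode kinases or binding proteins and were set aside, and EIF4E1B was listed in 2 files only.

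The RNA came from the inner lining of the rumen, the largest forestomach, of goats (Capra hircus) aged 4 months. Each of 3 groups, named HC, MC and LC after the concentrate diet that it was fed, gave 3 libraries, numbered 1 to 3. The labels do not say what the letters stand for, what the diets contained or whether each library came from a separate animal, so p-values here measure only the spread between these samples, which may be technical. Values are FPKM, fragments scaled to the length of the transcript and to the mapped fragments of the library, and allow levels to be compared between genes per length. Without read counts, sequencing depth is unknown.

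In the cell, eIF1 and eIF1A keep the small ribosomal subunit open while it scans. A complex of 3 proteins, eIF2, carries the initiator tRNA with GTP, and eIF2B reloads eIF2 with GTP afterwards. The large scaffold eIF3 binds the small subunit, and the eIF4 factors bind the mRNA cap and unwind the leader. Finally eIF5, eIF5B and eIF6 act on GTP hydrolysis, subunit joining and the release of the large subunit. The rumen lining is a stratified epithelium that renews itself steadily and takes up fermentation acids.

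Most of the differences that passed the test among these genes involved the MC libraries. EIF4E, EIF5B, EIF4A3, EIF2S1, EIF2S2, EIF2B1, EIF2B2, EIF4A1, EIF1B and EIF6 were higher in MC than in LC, while EIF2A, EIF2S3, EIF4B, EIF4G2 and EIF5 were lower. The tests were made with limma on log2(FPKM + 1) over all 11668 genes that reached 1 FPKM in 3 or more libraries and had a value in every file, with Benjamini-Hochberg adjustment and a threshold of 0.05. Of the 43 factors 42 met that filter. EIF5A2, an isoform gene of eIF5A, did not, with 0.237 to 1.00 FPKM across the 9 libraries.

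Between MC and LC 15 of the 42 tested factors passed (35.7%), against 33.4% of all genes tested. Of the 42, 10 were higher in MC (23.8%, against 16.2% of all genes) and 5 lower (11.9%, against 17.1%). Between HC and MC 12 passed (28.6%), against 25% of all genes. Here 2 of the 42 were higher in HC (4.76%, against 8% of all genes) and 10 lower (23.8%, against 17%). Between HC and LC 2 passed (4.76%), against 25.2% of all genes. These were 1 higher in HC (2.38% of the 42, against 7.79% of all genes) and 1 lower (2.38%, against 17.4%). The share of factors past the test thus lay near that of all genes in both comparisons with MC and below it between HC and LC. Both comparisons with MC share its libraries, and each pair of comparisons shares 1 diet. Between HC and LC 9 of the 42 reached an unadjusted p under 0.05, against 4475 of 11668 genes. The libraries of the diets did not overlap for 23 of the 42 factors between MC and LC (54.8%, against 47.1% of all genes), for 24 between HC and MC (57.1%, against 46.4%) and for 13 between HC and LC (31.0%, against 40.6%).

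In limma's F test over the 3 diets 15 of the 42 factors differed (35.7%), against 45.2% of all genes. Mean FPKM was highest in MC for 11 of these 15 factors, and in LC and HC for 2 each. Among the 5274 genes of the whole table that differed, 2143 (40.6%) were highest in MC. For the tested factors the log2 change had a median of 0.25 from LC to MC, of -0.13 from MC to HC and of 0.02 from LC to HC. Over all genes tested it was -0.0067, -0.10 and -0.10, so on the deposited scale the median gene lay lower in HC. After median-of-ratios scaling, which removes that shift, the higher and lower counts of factors were 11 and 6 from LC to MC, 6 and 8 from MC to HC, and 5 and 0 from LC to HC. Over all 11668 genes that scaling gave 1989 and 2011, 1513 and 1319, and 1494 and 1329. Quantile normalization gave 11 and 10, 4 and 10, and 2 and 1 factors. Over all genes it gave 2176 and 2100, 1553 and 1296, and 1484 and 1157.

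**Figure D1:**
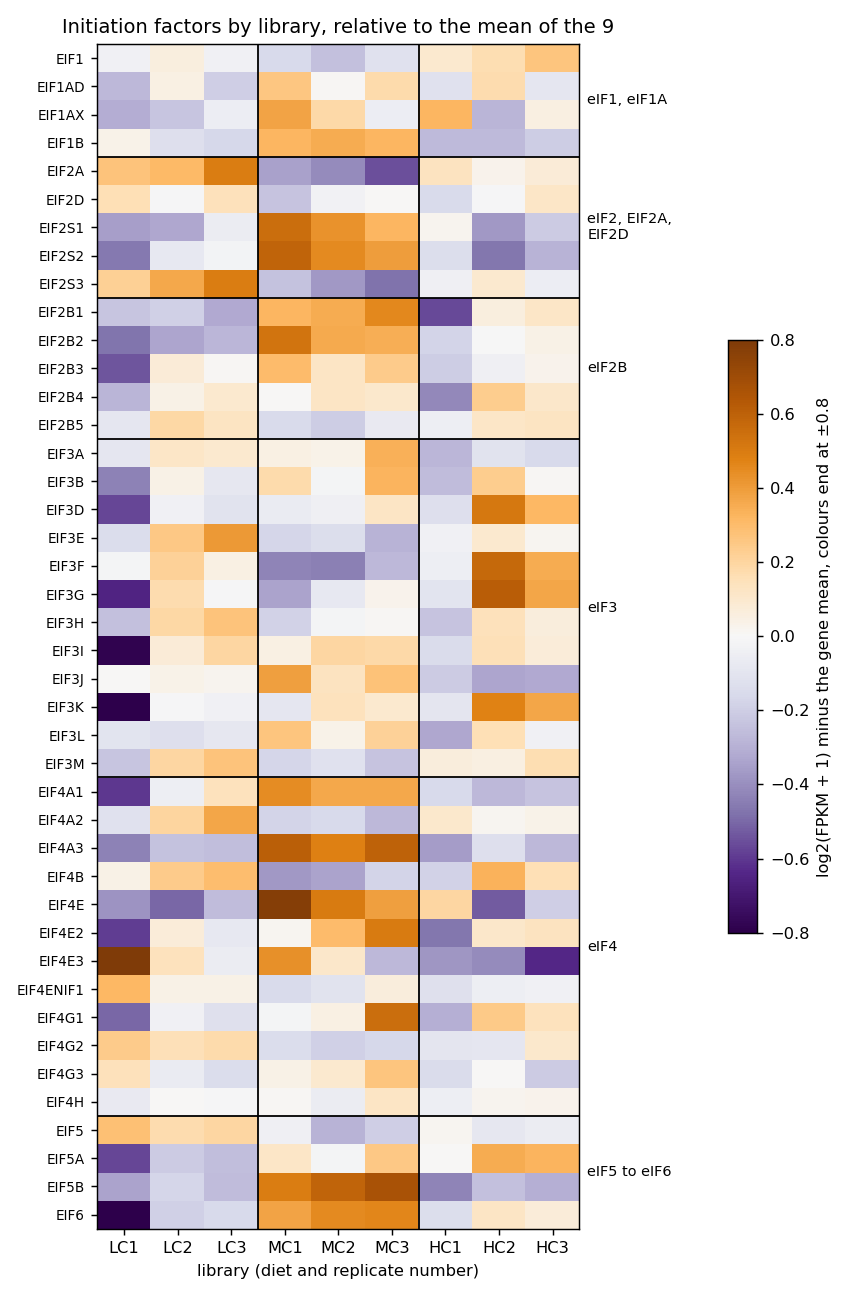
Each row is 1 of the 42 tested factors and each column 1 library, grouped by diet; colour gives log2(FPKM + 1) minus the mean of that gene over the 9 libraries, orange above and purple below it. Rows such as EIF5B, EIF4A3 and EIF2S2 are orange in the 3 MC libraries only, EIF4E is orange there and in HC1, EIF2A and EIF2S3 are purple there, and LC1 is purple for most eIF3 subunits.

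Summed over the 43 factors, the level took 0.606%, 0.613% and 0.636% of all FPKM in the MC libraries. In LC it took 0.567%, 0.544% and 0.552%, and in HC 0.53%, 0.583% and 0.564%. The MC libraries thus had the 3 highest shares, but not the highest sums. In FPKM the factors summed to 5502, 5532 and 5794 in MC, 4282, 5574 and 5688 in LC, and 5107, 6128 and 5913 in HC. The total over all genes, on which the share rests, was 903006 to 910750 FPKM in MC and 962868 to 1051183 in HC. Between the highest tested factor, EIF5A with a mean of 626 FPKM over the 9 libraries, and the lowest, EIF4E3 with 2.05 FPKM, lay a wide range. EIF5A ranked 208 of the 11668 tested genes by mean level, EIF6 236, EIF4A2 321 and EIF3K 338.

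The tissue label was checked against marker genes. Markers of basal epithelium, KRT5 and KRT14 among them, summed to 3969 to 6102 FPKM in LC, 5043 to 5808 in MC and 4301.5 to 6465 in HC. KRT5 and KRT14 made up most of that sum and passed nowhere, while COL17A1 was lower in MC than in LC (log2 change -0.78) and ITGA6 lower in HC than in LC (-0.75) and MC (-0.69), and TP63 was higher in HC than in MC (0.43). Of 8 markers of the upper layers 6 were tested, and their sum was 911 to 1300.1 FPKM in LC, 1336 to 1696 in MC and 744 to 1157 in HC. KRT4 (-4.11) and CNFN (-1.88) were lower and TGM1 (1.0775) higher in MC than in LC, while in HC minus MC KRT4 (2.83) and CNFN (1.34) were higher and TGM1 (-0.76) and TGM3 (-1.04) lower. From LC to HC KRT4 (-1.28) and TGM3 (-0.99) fell. Smooth muscle RNA, however, differed widely between libraries. The 7 smooth muscle markers, all listed, summed to 2252, 1314 and 64.0 FPKM in LC1, LC2 and LC3. In MC they summed to 1099 to 3361 and in HC to 122 to 163. Of the 7, 0 passed the test in MC minus LC, 0 in HC minus LC and 2, both lower, in HC minus MC. ACTA2, 1 of the 7, went against the sum, with means of 17.3 FPKM in LC, 25.4 in MC and 28.7 in HC. Its HC libraries all lay above its LC libraries. Of 6 macrophage and Langerhans cell markers, 5 were lower in MC than in LC (7.95 to 15.1 against 33.0 to 41.5 FPKM in sum), and in HC they summed to 20.3 to 25.4. T cell markers summed to 10.5 to 11.5 FPKM in LC, 3.05 to 4.51 in MC and 2.204 to 3.19 in HC. Of 4 endothelial markers, VWF alone passed, lower in MC (-0.94) and in HC (-0.97) than in LC. The part of these cell types and layers in the results was not tested. A fit added after the data were seen took the smooth muscle marker mean as a covariate. With it, 12 of the 15 calls in MC minus LC remained, 5 of the 12 in HC minus MC and 0 of the 2 in HC minus LC. Over all genes, calls went from 3894 to 3665, from 2917 to 1000 and from 2939 to 2121. The marker sums of MC and HC did not overlap, so between these diets the fit cannot tell smooth muscle and diet apart. In bulk tissue, fewer cells of a type and less RNA per cell cannot be told apart.

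Among the scanning factors, EIF1B passed the test and EIF1 did not. Both genes encode near-identical forms of eIF1, which guards the choice of the start codon, so reads could be split between them. EIF1 (chromosome 19, 41050101 to 41051771) held the larger share, with 259, 277 and 259 FPKM in LC1 to LC3, 237, 224 and 245 in MC1 to MC3, and 284, 299 and 319.97 in HC1 to HC3. No pair of diets overlapped for EIF1, yet the difference between HC and MC missed the threshold (log2 change 0.35 ± 0.13, adjusted p = 0.0721).

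EIF1B (chromosome 22, 12994295 to 12995561) stood at 35.8, 31.9 and 31.0 FPKM in LC, 44.0, 44.9 and 43.9 in MC, and 28.9, 28.9 and 30.2 in HC. All MC libraries lay above the other 6. The log2 change was 0.42 ± 0.11 in MC minus LC (limma, adjusted p = 0.0125) and -0.58 ± 0.11 in HC minus MC (adjusted p = 0.00386). The first of these was at adjusted p = 0.0513 without LC3, and the second at 0.115 with the smooth muscle covariate. Of summed EIF1 and EIF1B, EIF1B made up 11.0% ± 0.955 in LC, 15.8% ± 0.787 in MC and 8.89% ± 0.304 in HC (SD, n = 3), a ratio chosen after the values were seen. EIF1AX, the X-linked gene of eIF1A, ran from 23.8 to 39.0 FPKM and EIF1AD, which shares a domain with eIF1A, from 5.34 to 8.19, and neither passed in any comparison.

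The 3 subunits of eIF2 did not move together. EIF2S1, the alpha subunit whose phosphorylation slows initiation under stress, and EIF2S2, the beta subunit that contacts eIF5, were higher in MC. EIF2S3, the gamma subunit that binds GTP and the initiator tRNA, was lower in MC than in LC.

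For EIF2S1 (chromosome 10, 75296646 to 75336476) the values were 20.3, 20.7 and 25.2 FPKM in LC, 39.0, 35.7 and 33.1 in MC, and 26.7, 20.1 and 22.6 in HC. The MC libraries did not overlap the others, and LC and HC overlapped. Its log2 change was 0.68 ± 0.14 in MC minus LC (limma, adjusted p = 0.00298) and -0.62 ± 0.14 in HC minus MC (adjusted p = 0.0083).

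The same order held for EIF2S2 (chromosome 13, 61507250 to 61521903), at 24.6, 32.35 and 33.7 FPKM in LC, 52.1, 47.3 and 45.5 in MC, and 31.1, 24.5 and 27.9 in HC. It changed by 0.67 ± 0.15 in MC minus LC (limma, adjusted p = 0.0046) and by -0.78 ± 0.15 in HC minus MC (adjusted p = 0.00359). Where LC3 alone stood for LC, the MC minus LC calls of EIF2S1 and EIF2S2 were lost, with adjusted p of 0.0874 and 0.0672.

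EIF2S3 (chromosome X, 107991614 to 108007883), at a higher level than its partners, gave 93.4, 103 and 113 FPKM in LC, 67.5, 61.6 and 57.2 in MC, and 77.9, 85.5 and 77.2 in HC. LC was highest, MC lowest, and no 2 diets overlapped. MC minus LC was -0.72 ± 0.13 (limma, adjusted p = 0.001545), and it passed in every alternative run. The steps from LC to HC (-0.36 ± 0.13, adjusted p = 0.0654) and from MC to HC (0.36 ± 0.13, adjusted p = 0.0614) missed the threshold.

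As a ratio of FPKM, EIF2S3 to EIF2S1 was 4.60, 4.98 and 4.50 in LC, 1.73, 1.73 and 1.73 in MC, and 2.91, 4.25 and 3.41 in HC. EIF2S3 to EIF2S2 was 3.45 ± 0.313 in LC, 1.29 ± 0.0236 in MC and 2.92 ± 0.509 in HC (SD, n = 3). Both ratios were lowest in the 3 MC libraries, and both were chosen after the values were seen. EIF2S1 shares its locus in the files with PLEK2, so its reads are uncertain. PLEK2 was lower in MC (49.6 ± 4.97 FPKM) than in LC (68.2 ± 7.21) and HC (72.7 ± 7.63), opposite to EIF2S1.

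EIF2A is a single protein, distinct from the eIF2 complex, that can bring initiator tRNA to some start codons without it. Its gene (chromosome 1, 115245129 to 115284894) was at 37.7, 38.8 and 44.3 FPKM in LC, 24.2, 23.2 and 20.8 in MC, and 34.2, 31.8 and 32.9 in HC. Its libraries too did not overlap between any 2 diets, with LC highest and MC lowest. EIF2A fell by 0.80 ± 0.12 on the log2 scale from LC to MC (limma, adjusted p = 0.000416), in every alternative run, and was higher in HC than in MC by 0.52 ± 0.12 (adjusted p = 0.00901), a call lost with the smooth muscle covariate (adjusted p = 0.199). EIF2D, another tRNA-binding factor, ran from 8.92 to 12.002 FPKM and passed nowhere.

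**Figure D2:**
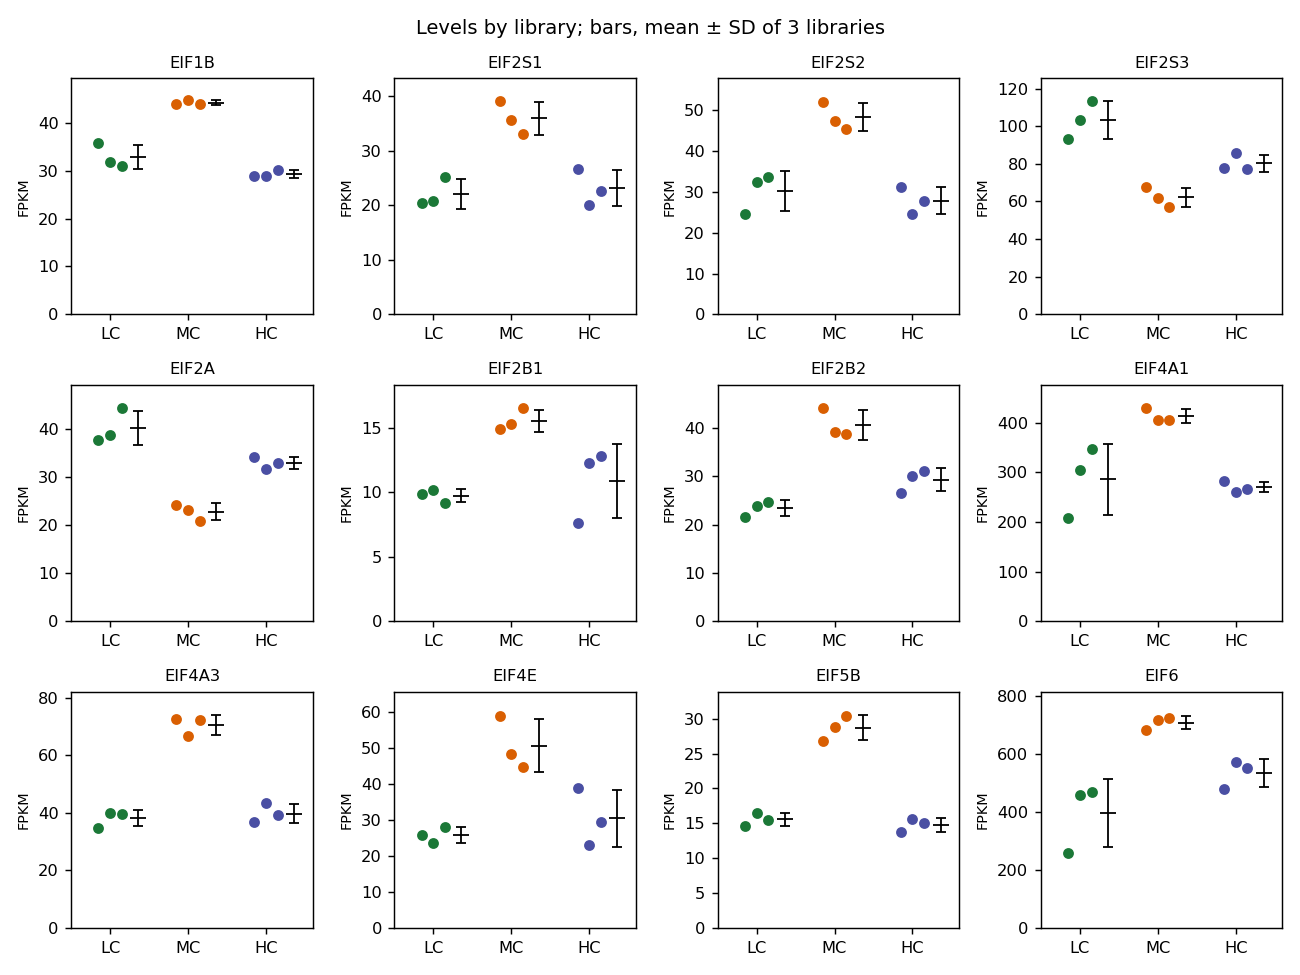
FPKM of 12 factors in each library (points, in the order of replicate numbers), with the mean ± SD of the 3 libraries of a diet beside them; each axis starts at 0. EIF2S3 and EIF2A are lowest in MC. The other 10 genes, from EIF1B to EIF6, have all 3 MC libraries above the 6 libraries of LC and HC. The genes shown were picked because MC stood apart in them. Of all 42 tested factors, 12 have the 3 MC libraries highest, against 1762 of 11668 genes, and 6 have them lowest, against 987.

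Among the 5 subunits of eIF2B, the exchange factor of eIF2, the alpha and beta subunits EIF2B1 and EIF2B2 rose in MC, and the other 3 did not pass the test. EIF2B2 (chromosome 10, 82304064 to 82310369) stood at 21.5, 23.8 and 24.7 FPKM in LC, 44.1, 39.0 and 38.7 in MC, and 26.6, 30.1 and 31.1 in HC. No 2 diets overlapped, with LC lowest and HC between. Its log2 change was 0.77 ± 0.12 in MC minus LC (limma, adjusted p = 0.000575), which passed in every alternative run, and -0.46 ± 0.12 in HC minus MC (adjusted p = 0.0174, but 0.0781 without MC1 and 0.0999 with the smooth muscle covariate).

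EIF2B1 (chromosome 17, 51602270 to 51630826) gave 9.91, 10.2 and 9.21 FPKM in LC, 14.9, 15.3 and 16.5 in MC, and 7.62, 12.3 and 12.8 in HC. MC was highest, and HC1 lay well below HC2 and HC3. MC minus LC was 0.62 ± 0.16 (limma, adjusted p = 0.0122, but 0.0757 with LC3 alone for LC) and HC minus MC -0.51 ± 0.16 (adjusted p = 0.0409). The second was lost without HC1 (-0.29, adjusted p = 0.0899), without LC2 (0.0546), without MC1, MC2 or MC3 (0.0848 to 0.101), after median-of-ratios scaling (0.0850) or quantile normalization (0.0845), under plain moderation (0.0510), with LC3 alone for LC (0.0523) and with the smooth muscle covariate (0.331). EIF2B1 also overlaps DDX55, a helicase gene with 2.92 ± 0.335 FPKM in LC, 4.13 ± 0.593 in MC and 2.05 ± 0.0245 in HC (SD, n = 3), so the values of both are uncertain.

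The gamma subunit EIF2B3 had means of 9.195 FPKM in LC, 11.99 in MC and 9.61 in HC, the delta subunit EIF2B4 29.5, 32.1 and 30.4, and the catalytic epsilon subunit EIF2B5 24.8, 21.1 and 24.5. Their log2 changes in MC minus LC were 0.37 ± 0.16, 0.12 ± 0.17 and -0.22 ± 0.12, none past the test. The FPKM ratio of EIF2B2 to EIF2B5, chosen after the values were seen, was 0.946 ± 0.0507 in LC, 1.93 ± 0.184 in MC and 1.19 ± 0.0187 in HC (SD, n = 3).

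**Figure D3:**
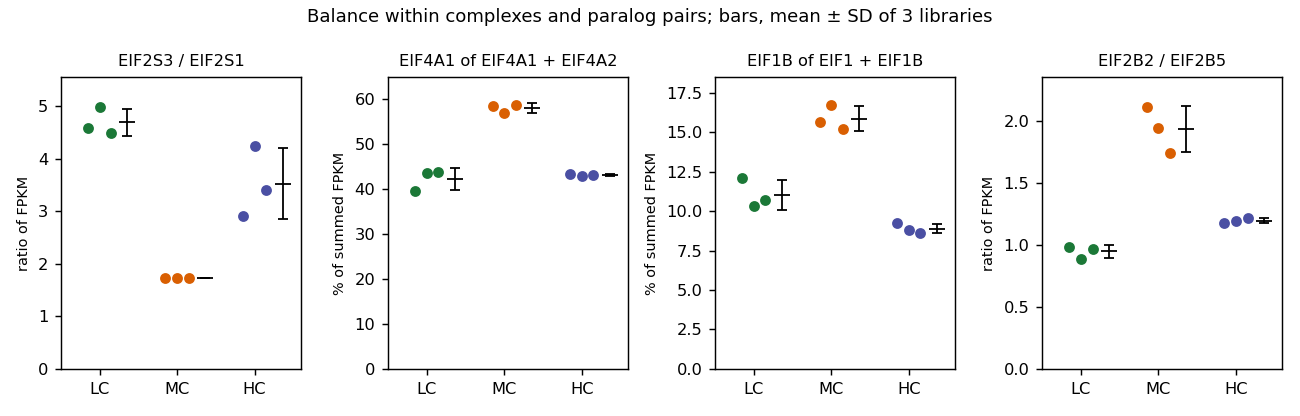
Each panel plots, per library, a ratio or share of FPKM between 2 genes of the same complex or paralog pair, with the mean ± SD of the 3 libraries of a diet; each axis starts at 0. MC is set apart in all 4 panels, with the lowest EIF2S3 to EIF2S1 ratio, at 1.73 in each library, and the highest EIF4A1 share, EIF1B share and EIF2B2 to EIF2B5 ratio.

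The eIF3 complex, which binds the small subunit and recruits the mRNA, was measured through 12 genes, since no row of the deposited tables was named EIF3C. None of the 12 passed in MC minus LC, against 33.4% of all genes, or in HC minus LC, against 25.2%. An unadjusted p under 0.05 was reached by 2 in MC minus LC, against 5066 of 11668 genes, and by 3 in HC minus LC, against 4475. In HC minus MC 2 passed (16.7%, against 25% of all genes). EIF3F, a subunit related to proteins of the proteasome lid, was higher in HC, and EIF3J, the loosely bound subunit that sits near the decoding site, was lower in HC.

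EIF3F (chromosome 15, 42760557 to 42767904) was at 195, 229 and 204 FPKM in LC, 146, 145 and 163 in MC, and 191, 294 and 253 in HC. MC was lowest, and HC and LC overlapped. HC minus MC was 0.67 ± 0.17 (limma, adjusted p = 0.0150), and the adjusted p was 0.0594 without MC1, 0.0599 without MC2, 0.067 without HC2 and 0.0612 without HC3, with changes of 0.53 to 0.65. With the smooth muscle covariate the change was 0.68 and the adjusted p 0.126. MC minus LC was -0.46 ± 0.17 and just missed the threshold (adjusted p = 0.0556).

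EIF3J (chromosome 10, 98918005 to 99002442) gave 43.7, 44.7 and 44.2 FPKM in LC, 57.5, 47.9 and 53.1 in MC, and 37.5, 34.3 and 34.7 in HC. Each diet kept to its own range, with HC lowest. HC minus MC was -0.56 ± 0.12 (limma, adjusted p = 0.00616, but 0.0743 with the smooth muscle covariate), while HC minus LC (-0.31 ± 0.12, adjusted p = 0.0742) and MC minus LC (0.25 ± 0.12, adjusted p = 0.125) did not pass. EIF3J overlaps SPG11 (4.97 to 6.34 FPKM as means of the diets), which passed in no comparison.

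The highest of the 12, EIF3K (chromosome 18, 47224215 to 47236804), stood at 178, 322 and 317 FPKM in LC, 304, 358 and 347 in MC, and 303, 452 and 420.3 in HC. The diets overlapped, and LC1 lay far below the other libraries. LC1 was the lowest LC library for 11 of the 12 genes and HC1 the lowest HC library for 10, while MC1 was lowest for 5. Over all 42 tested factors LC1 was lowest for 31, HC1 for 28 and MC1 for 15. The summed FPKM of the 12 genes was 1618, 2296 and 2311 in LC, 1909, 2040.4 and 2082 in MC, and 1939, 2581 and 2382 in HC. LC1 also had the lowest total over all genes, 755624 FPKM against 903006 to 1051183 in the others. Without LC1, 19 factors passed between MC and LC, 19 between HC and MC and 2 between HC and LC. Over all genes 4043, 4066 and 2791 then passed, against 3894, 2917 and 2939 with LC1.

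**Figure D4:**
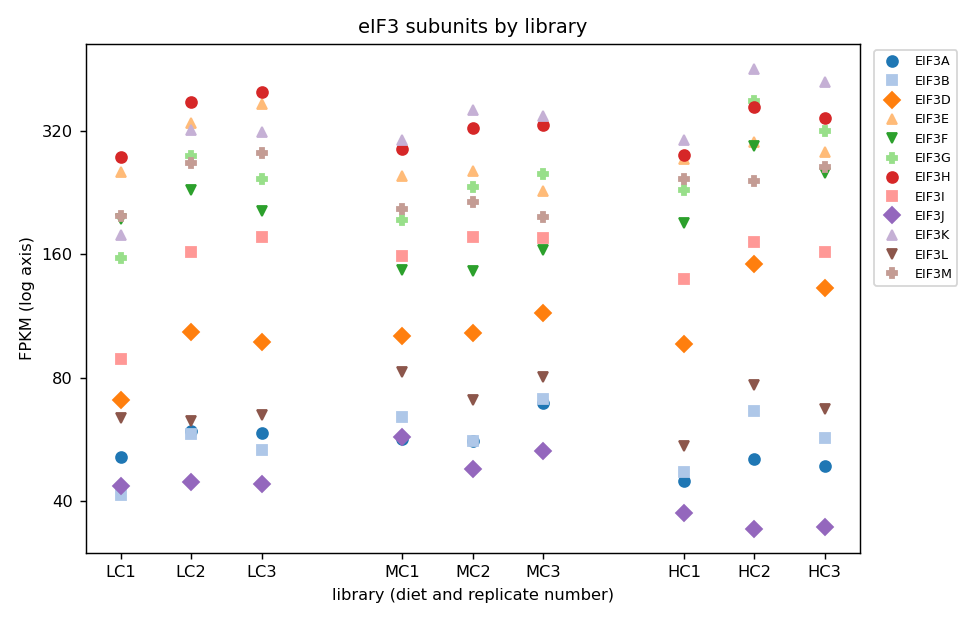
FPKM of the 12 eIF3 genes (log axis) in each library, grouped by diet. Points of EIF3I, EIF3K and EIF3G are low in LC1, those of EIF3F are lowest in MC, and EIF3J lies below 40 FPKM in the HC libraries only.

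The eIF4 group held the largest rise. EIF4E, the protein that binds the mRNA cap and is usually held to limit initiation, had (chromosome 6, 23892043 to 23936010) 25.7, 23.6 and 28.1 FPKM in LC, 58.8, 48.3 and 44.6 in MC, and 38.9, 23.1 and 29.3 in HC. MC did not overlap the others, and HC1 was the highest library outside MC. The mean in MC was 1.96 times that in LC, with a log2 change of 0.94 ± 0.18 (limma, adjusted p = 0.00206, but 0.0537 with LC3 alone for LC). HC minus MC was -0.73 ± 0.18 (adjusted p = 0.0124), lost without MC1 (0.0577), without HC2 (0.0501) and with the smooth muscle covariate (0.0722).

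EIF4E2, a cap-binding relative that represses rather than drives translation, had means of 34.5 FPKM in LC, 47.9 in MC and 37.8 in HC and passed nowhere. EIF4E3 (chromosome 22, 29741291 to 29787837), a second relative at a low level, gave 5.02, 2.16 and 1.75 FPKM in LC, 2.87, 2.09 and 1.37 in MC, and 1.203, 1.16 and 0.837 in HC. LC1 alone lay above 3 FPKM. HC minus LC was -0.86 ± 0.27 (limma, adjusted p = 0.0413), and it was lost in most alternatives, among them those without LC1 (-0.52, adjusted p = 0.0869), without LC2 (0.0539), without MC2 (0.0611), without HC1 (0.0750), without HC2 (0.0926) and without HC3 (0.135). Median-of-ratios scaling (0.0684), quantile normalization (0.0957), the smooth muscle covariate (0.171) and LC3 alone for LC (0.344) also ended it.

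The helicase eIF4A, which unwinds the mRNA leader, comes from paralogs, EIF4A1 and EIF4A2, of closely similar sequence, so reads could be split between them. EIF4A1 (chromosome 19, 26535718 to 26544146) was at 207, 305 and 347 FPKM in LC, 429.7, 407 and 406 in MC, and 282, 261 and 268 in HC. EIF4A2 (chromosome 1, 78829565 to 78849085) was at 318, 397 and 446 FPKM in LC, 305, 309 and 285 in MC, and 371, 348 and 353 in HC. In MC EIF4A1 exceeded EIF4A2 in all 3 libraries, and in LC and HC EIF4A2 was the higher in all 6.

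EIF4A1 changed by 0.56 ± 0.18 in MC minus LC (limma, adjusted p = 0.0348) and by -0.61 ± 0.18 in HC minus MC (adjusted p = 0.0312). The first call was lost without MC1, MC2 or MC3 (0.0757 to 0.105), LC2 (0.0506) or HC3 (0.0545), and with LC3 alone for LC (0.25, adjusted p = 0.226). The second was lost without MC1, MC2 or MC3 (0.0668 to 0.101), HC2 (0.0925) or HC3 (0.0928), and after median-of-ratios scaling (0.0538). EIF4A2 changed by -0.35 ± 0.16 in MC minus LC and did not pass (adjusted p = 0.102).

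The share of EIF4A1 in the sum of both, which does not depend on the scaling of a library, was 39.5%, 43.5% and 43.8% in LC, 58.5%, 56.8% and 58.8% in MC, and 43.2%, 42.9% and 43.1% in HC. MC exceeded LC by 15.8 percentage points and HC by 14.9 (HC minus MC -14.9), each with an exact two-sided permutation p = 0.1, the smallest that 3 libraries against 3 allow. HC and LC differed by 0.827 points (exact permutation p = 1). EIF4A1 overlaps CD68, a macrophage gene at 2.10 ± 0.606 FPKM in LC, 1.33 ± 0.416 in MC and 1.24 ± 0.281 in HC, and EIF4A2 overlaps RFC4, at 20.4 ± 2.13, 27.1 ± 1.48 and 23.7 ± 1.28 FPKM (SD, n = 3). Both neighbours lay far below the helicase genes.

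EIF4A3 is a related helicase of the exon junction complex, which marks spliced mRNA, and not a cap-binding factor. Its gene (chromosome 19, 51250887 to 51262880) stood at 34.8, 39.9 and 39.5 FPKM in LC, 72.7, 66.5 and 72.2 in MC, and 36.7, 43.3 and 39.1 in HC. The MC libraries were set apart by a wide gap, and LC and HC overlapped. It changed by 0.87 ± 0.12 in MC minus LC (limma, adjusted p = 0.000291) and by -0.81 ± 0.12 in HC minus MC (adjusted p = 0.00101), and both calls held in every alternative run.

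Of the factors that work beside eIF4A, EIF4B, its RNA-binding partner, fell from 283 ± 26.3 FPKM in LC to 201 ± 14.4 in MC (log2 change -0.49 ± 0.16, limma, adjusted p = 0.0382). EIF4G2, a scaffold relative used in cap-independent initiation, fell from 175 ± 5.48 to 136 ± 2.31 FPKM (-0.36 ± 0.13, adjusted p = 0.0486). The call of EIF4B was lost without LC2, LC3, MC1, MC2, MC3 or HC3 (0.0576 to 0.125) and that of EIF4G2 without any 1 library but LC1 (0.0552 to 0.130). With the smooth muscle covariate they stood at 0.106 and 0.0851, and with LC3 alone for LC at 0.0654 and 0.131. The scaffolds EIF4G1 (means of 85.4 to 115 FPKM over the diets) and EIF4G3 (7.99 to 9.70), the eIF4A stimulator EIF4H (144 to 149) and the EIF4E transporter EIF4ENIF1 (4.996 to 5.92) passed in no comparison.

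**Figure D5:**
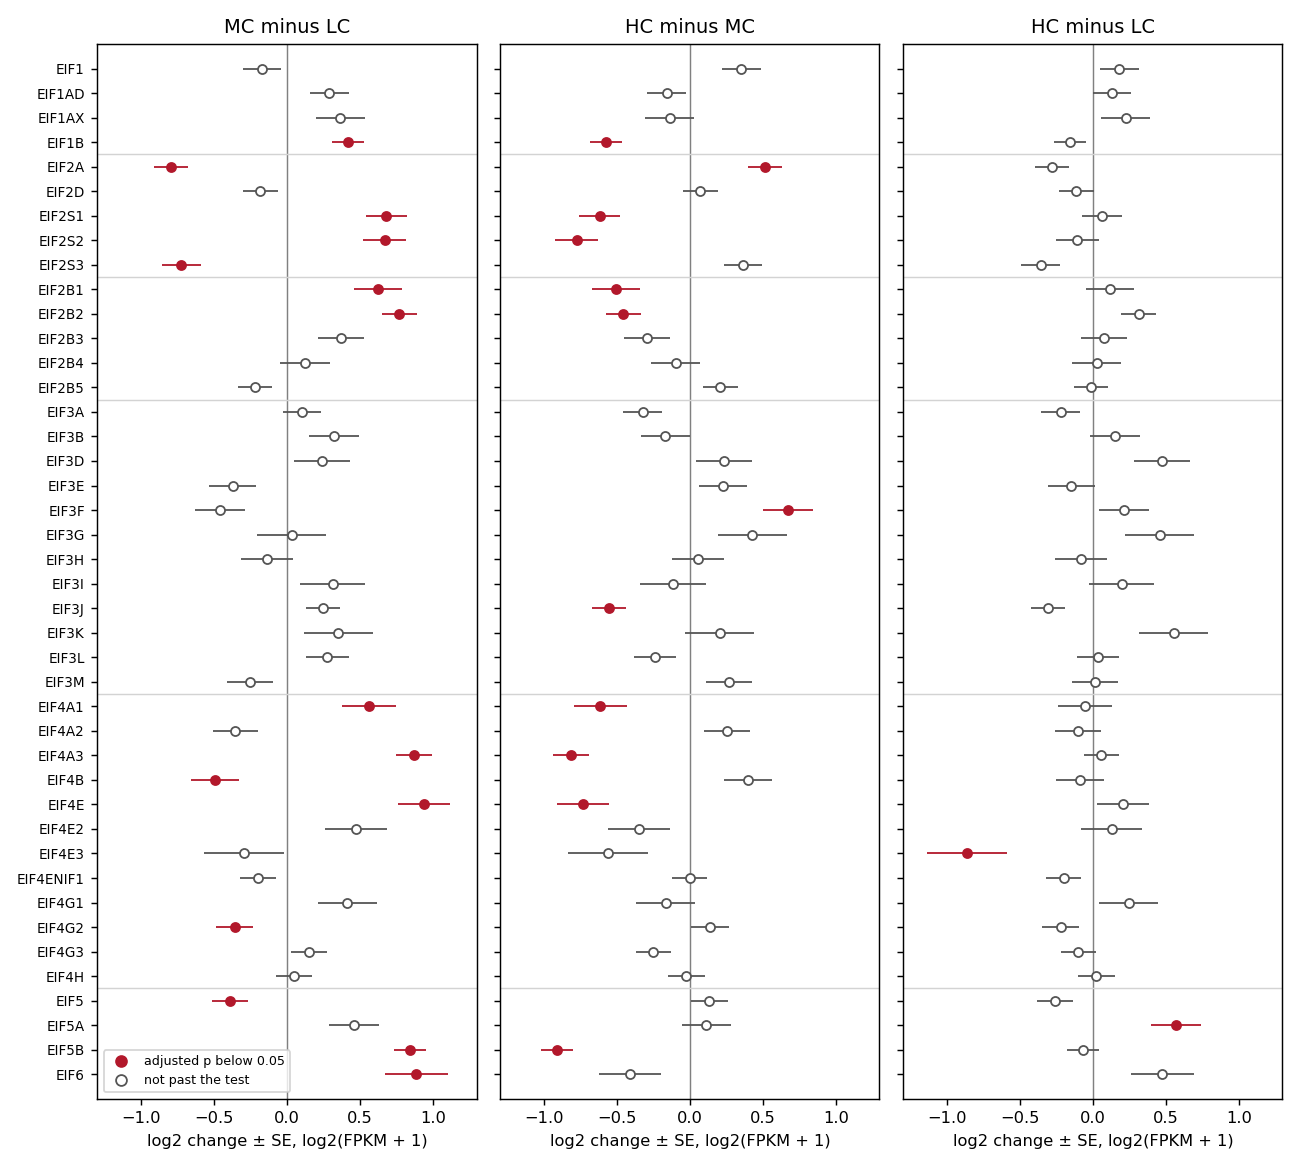
Log2 changes (points) with SE (bars) of the 42 tested factors in the 3 comparisons, in the order of their roles; filled points passed at an adjusted p below 0.05. Filled points lie on both sides of 0 in MC minus LC (10 and 5) and HC minus MC (2 and 10), and only EIF4E3 and EIF5A are filled in HC minus LC.

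EIF5B, the GTPase that joins the large to the small subunit, gave the lowest adjusted p of the 42 factors in both comparisons with MC. Its gene (chromosome 11, 4528686 to 4601617) was at 14.6, 16.5 and 15.5 FPKM in LC, 26.9, 28.8 and 30.4 in MC, and 13.7, 15.6 and 14.99 in HC. LC and HC overlapped, and the means in MC were 1.85 times those in LC and 1.94 times those in HC. The log2 changes were 0.84 ± 0.11 in MC minus LC (limma, adjusted p = 0.000194) and -0.91 ± 0.11 in HC minus MC (adjusted p = 0.000302), and they passed in every alternative run.

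EIF6 binds the large ribosomal subunit and keeps it from joining too early, and it also acts in making that subunit. Its level (chromosome 13, 62615357 to 62621747) was 259, 457 and 467 FPKM in LC, 681, 715 and 723 in MC, and 477, 569.9 and 549.7 in HC. No 2 diets overlapped, with LC lowest and HC between. MC minus LC was 0.89 ± 0.21 (limma, adjusted p = 0.00806) and passed in every alternative run, with changes as small as 0.61 without LC1 and 0.59 with LC3 alone for LC. HC minus LC (0.48 ± 0.21, adjusted p = 0.125) and HC minus MC (-0.41 ± 0.21, adjusted p = 0.178) did not pass.

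EIF5A, the hypusine-bearing factor that helps ribosomes through stalling sites, was the only factor that passed the test as higher in HC than in LC on the deposited scale. EIF1, EIF2B2 and EIF6 also had every HC library above every LC library, without passing. The gene (chromosome 19, 26315052 to 26320272) stood at 413, 531 and 516 FPKM in LC, 664, 606 and 731 in MC, and 616, 783 and 771 in HC. LC was below the other diets in every library, and MC and HC overlapped. HC minus LC was 0.57 ± 0.17 (limma, adjusted p = 0.0296). It was lost without HC2 (0.101), HC3 (0.114) or MC1 (0.0502), with the smooth muscle covariate (0.115) and with LC3 alone for LC (0.123). MC minus LC was 0.46 ± 0.17 (adjusted p = 0.0565). EIF5A overlaps GPS2, at 53.6 ± 10.9 FPKM in LC, 74.5 ± 11.0 in MC and 72.1 ± 8.70 in HC.

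EIF5, which makes eIF2 hydrolyse its GTP at the start codon, fell from 98.7 ± 4.30 FPKM in LC to 75.0 ± 6.71 in MC (log2 change -0.39 ± 0.12, limma, adjusted p = 0.0297), with 82.2 ± 2.98 in HC. The call was lost without LC2, LC3, MC2, MC3 or HC3 (0.0531 to 0.118), with the smooth muscle covariate (0.0584) and with LC3 alone for LC (0.118).

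By position the factors were spread over 21 chromosomes. EIF5A and EIF4A1 lie 215 kb apart on chromosome 19, and EIF4A1 but not EIF5A passed in MC minus LC. EIF4G1 and EIF2B5, 131.6 kb apart on chromosome 1, passed nowhere, and neither did EIF4E2 and EIF3I, 1116 kb apart on chromosome 2. EIF2S2 and EIF6, 1094 kb apart on chromosome 13, were both higher in MC than in LC. Besides those named above, EIF2B3 and EIF3I overlap another gene of the files, which makes 8 of the 43 factors whose reads may be shared.

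Genes that regulate initiation or act beside it were taken as a list of 33, of which 32 were tested. In MC minus LC 2 rose, 5 fell and 25 did not pass, which makes 21.9% called against 33.4% of all genes, and the median was -0.019 on the log2 scale. In HC minus MC 5 were higher in HC, 8 lower and 19 did not pass (40.6% called against 25% of all genes, median 0.10). From LC to HC 2 were higher, 4 lower and 26 did not pass (18.75% called against 25.2%, median -0.076). ABCE1, which splits ribosomes for a new round, rose from 17.3 ± 2.52 FPKM in LC to 38.5 ± 3.37 in MC (log2 change 1.12, limma, adjusted p = 0.000162) and stood at 20.2 ± 2.83 in HC. PABPC1, the poly(A)-binding protein that ties the tail to eIF4G, fell from 534 ± 13.4 FPKM in LC to 298 ± 13.7 in MC (-0.84, adjusted p = 0.00209), with 390.1 ± 68.6 in HC.

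TSC1 and TSC2, which form the brake on the growth kinase mTOR, were lower in MC than in LC, TSC1 at 3.80 against 6.62 FPKM (-0.67) and TSC2 at 9.24 against 14.7 FPKM (-0.62). TSC1 was also lower in HC than in LC (-0.36, limma, adjusted p = 0.0315), where TSC2 did not pass (-0.073). MTOR itself, from 9.53 to 10.6 FPKM as means of the diets, did not pass. PPP1R15A, which guides the phosphatase that restores eIF2, was highest in HC, at 23.6 ± 1.93 FPKM against 15.2 ± 1.95 in LC (0.61, adjusted p = 0.00626) and 11.97 ± 1.36 in MC. EIF2AK2, the interferon-induced eIF2 kinase, was lowest in HC, at 6.20 ± 1.21 FPKM against 12.1 ± 1.26 in LC (-0.87, adjusted p = 0.00257) and 11.5 ± 2.21 in MC. Another eIF2 kinase, EIF2AK3, and ATF4, a factor whose translation rises when eIF2 is phosphorylated, were also lower in HC than in LC (log2 changes of -0.43 and -0.47). EIF2AK1 and EIF2AK4, also eIF2 kinases, passed in no comparison (-0.080 and -0.039 in HC minus LC). EIF2AK1, EIF2AK3, EIF2AK4, ATF4 and MTOR were named after their values were seen. MCTS1 and DENR, partners in recycling and reinitiation, went opposite ways in HC minus MC (0.57 and -0.66).

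The elongation and termination list had 12 genes, of which 8 were tested. In MC minus LC 3 rose, 1 fell and 4 did not pass (50% called against 33.4% of all genes). In HC minus MC 2 were higher, 3 lower and 3 did not pass (62.5% against 25%), and in HC minus LC 1 was higher, 1 lower and 6 did not pass (25% against 25.2%). The termination factor genes GSPT1 (18.7 to 33.5 FPKM, log2 change 0.80) and ETF1 (41.4 to 59.4, 0.52) and the synthetase complex gene EEF1E1 (5.39 to 15.5, 1.37) rose from LC to MC. EEF2K, the kinase that halts elongation, fell (13.9 to 8.63, -0.63). EEF1G and EEF2, which drive elongation, were higher in HC than in MC (0.64 and 0.60). Neither mitochondrial initiation factor, MTIF2 or MTIF3, passed in any comparison.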

How the data were processed

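Total RNA of the epithelium was made into 9 TruSeq libraries, per the labels' protocols. The authors deposited 1 FPKM value per gene and library, and the submitters' processing notes name Bowtie 1.2.0 and Cufflinks 2.2.1. No label states the unit, which was inferred from Cufflinks' output. The genome build is not given in the sources used here, nor are strand and the handling of reads that match several places. Positions are those of the files, and chromosome names come from the genes that RefSeq's table (goat assembly ARS1.2) places there, which holds all 43 factors.

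Lines named by a bare number (18 to 21 in each MC and LC file, 0 in HC) and empty lines were left out, and repeated lines of a gene were summed. Of 284 genes below 0.3 FPKM in all libraries, at most 2 shared a ratio between LC1 and LC2 to 3 decimals, so no read counts were recovered. All tested genes were fitted together with limma 3.58.1 in R 4.3.3 as log2(FPKM + 1), which understates changes of low genes, with a mean per diet and moderation that was trended and robust (residual degrees of freedom 6, prior 5.77 at the median). Tests are two-sided. Figures used Python 3.11.15 and matplotlib 3.10.9.

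The factors and lists were chosen with earlier results of these data known. Values of each library are given for up to 10 factors per comparison by adjusted p among those past the test with a log2 change of at least 0.5 in size, and for the highest factor of each role.

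Alternatives tried were another pseudocount (0.1), no filter, median-of-ratios scaling, quantile normalization, moderation without trend and robustness, a replicate block, each library left out in turn and 2 fits added after the data were seen.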

Additional observations from a re-analysis of the deposited data

How the results depend on the processing

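Of the calls of single factors, 6 of 15 in MC minus LC, 4 of 12 in HC minus MC and 0 of 2 in HC minus LC held in all 17 alternatives, and 0 reversed. The cause of the changes below was not tested. Counts of factors (called, higher, lower) were 2, 1 and 1 in HC minus LC, 15, 10 and 5 in MC minus LC, and 12, 2 and 10 in HC minus MC. In HC minus LC they became 5, 5 and 0 with median-of-ratios scaling and 0, 0 and 0 with the smooth muscle covariate or with LC3 alone for LC, and quantile normalization gave 2 higher. In MC minus LC they became 9, 5 and 4 with LC3 alone, with 10 lower after quantile normalization and 2 lower with the covariate. In HC minus MC they became 5, 0 and 5 with the covariate, with 6 higher after median-of-ratios scaling, 4 after quantile normalization and 4 with LC3 alone. Over all genes, LC3 alone gave 1379 calls in HC minus LC and 2322 in MC minus LC, and the covariate 1000 in HC minus MC. The factors' median was 0.15 in HC minus LC and -0.0093 in HC minus MC after median-of-ratios scaling, and 0.13 in MC minus LC with LC3 alone. The covariate and LC3 alone were chosen after seeing the data.

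The replicate numbers are shared between diets. Deviations of libraries with the same number correlated positively, up to 0.504 (LC3 with MC3), except for MC2 with HC2 (-0.0759). Those with different numbers correlated from -0.494 (LC1 with MC3) to 0.310 (MC3 with HC2), most of them negatively. Deviations were taken from the mean of each diet, so within a diet they sum to 0 for each gene. Positive correlations between same numbers thus bring negative ones between different numbers, which are no separate observation. Not every library correlated best with its own number. The main fit did not pair libraries by number, and whether the numbers mark pairs was not tested. With the number as a replicate block 6 factors were called in HC minus LC (4 higher, 2 lower), 19 in MC minus LC and 17 in HC minus MC (5 higher). Over all genes tested the calls rose too, from 2939 to 3751, from 3894 to 4613 and from 2917 to 3871. The block ended no call of a factor.

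Leaving out 1 library at a time gave 0 to 2 factors in HC minus LC (0 to 2 higher, 0 to 1 lower), 11 to 19 in MC minus LC (9 to 10 higher, 2 to 9 lower), 7 to 19 in HC minus MC (1 to 6 higher, 6 to 13 lower) and 10 to 22 in the F test. The highest counts in MC minus LC, HC minus MC and the F test came without LC1, and 7 in HC minus MC without MC1. The 5 factors lower in MC minus LC became 2 without LC2, LC3, MC2, MC3 or HC3 and 3 without MC1. HC minus LC gave 1 factor without LC2, MC1 or MC2 and 0 without HC2 or HC3. Over all genes the range was 1769 to 2811 in HC minus LC, 2838 to 4043 in MC minus LC, 1619 to 4066 in HC minus MC (1619 to 1801 without MC1, MC2, HC2 or HC3) and 3988 to 5901 in the F test. The factors' median ran from -0.089 to 0.082 in HC minus LC, 0.073 to 0.28 in MC minus LC and -0.20 to -0.015 in HC minus MC. The difference in the EIF4A1 share ran from -0.54 to 1.58 percentage points in HC minus LC, where it reversed to -0.5445 without LC1, from 14.4 to 16.5 in MC minus LC and from -15.5 to -14.6 in HC minus MC. FPKM without counts leave unknown how far depth limits the low genes EIF4E3 and EIF5A2.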
